A study of Mus musculus with 10 samples.

Results

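The genes described here are 48 enzymes of the urea cycle and of amino acid breakdown in the liver, grouped by the amino acid they handle. They were taken by symbol from a table of 59408 gene models, of which 18390 reached 10 normalised reads in at least 3 of 10 libraries and were tested. Each of the 48 symbols matched 1 gene model, and all 48 models passed that filter. The Ass1 model is merged with Gm5424 in the table, so its reads cannot be assigned to Ass1 alone. The Afmid model is merged with the neighbouring gene Syngr2, so its reads cannot be assigned to Afmid. Messenger RNA was sequenced in bulk from the whole livers of 10 mice of the strain C57BL/6, taken at day 35. The 3 mice of the primary biliary cholangitis (PBC) model, an autoimmune bile duct disease, received 100 µg of 2-octynoic acid coupled to bovine serum albumin intraperitoneally at day 0 in complete Freund's adjuvant and at days 14 and 28 in incomplete adjuvant. They also received 2 µg of α-galactosylceramide, a glycolipid that activates natural killer T cells, intravenously with the injections at days 0 and 14. The 3 mice of the primary sclerosing cholangitis (PSC) model ate food that held DDC (3,5-diethoxycarbonyl-1,4-dihydrocollidine) at 0.089%. This compound disturbs haem synthesis and injures bile ducts. DDC food was given for 2 weeks, regular food for 1 week and DDC food for 1 more week. The 4 control mice were healthy, and the labels describe no adjuvant, glycolipid or DDC for them. The sources used here do not state age or sex. Each liver is 1 library, and values are given in the order PBC 7, 8 and 9, PSC 11, 13 and 14, and control 1 to 4.

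Hepatocytes remove the nitrogen of amino acids by passing it to glutamate and ammonia and then into urea, which is made in a cycle that begins in mitochondria and ends in the cytosol. The carbon skeletons are broken down by a separate route for each amino acid and feed the synthesis of glucose, ketone bodies or cofactors such as NAD. In mouse liver many of these enzymes are among the most abundant hepatocyte transcripts. Urea synthesis, glutaminase and histidine breakdown are strongest around the portal tracts, where bile ducts lie, while glutamine synthetase is restricted to the hepatocytes next to the central vein. Glucagon and glucocorticoids are known to raise many of these genes, and inflammation is known to change some of them.

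Limma called 5 of the 48 genes in at least 1 comparison: Cps1, Hal, Cbs, Kmo and Shmt1. The share of members called was 6.25% in PBC against control, 4.17% in PSC against control and 2.08% in PBC against PSC. Of all tested genes, 7.6% were called higher and 2.34% lower in PBC, 8.25% and 6.48% in PSC, and 1.11% and 1.13% between the models. The promoter windows of the called genes are shown because these members passed the test, though 0 of the calls held in all 19 alternative analyses. The windows run from 250 bases before to 50 bases after the start in RefSeq (build GRCm38.p6). RefSeq entries were found for 37 of the 48 genes, with 39 windows in all, and for 4 of the 5 called genes. Cps1 had no entry. Capitals mark matches, on either strand, to 6 short motifs. Each is given with the share of all 32851 windows of this length that hold it. They are TATAAA (the TATA box, in 13.6%), TTNNGCAA (bound by C/EBP factors, in 10.8%), TGACG (the core of the cAMP response element, in 20.8%) and CAAAG (an HNF4 core motif, in 53.9%). The others are TTCNNNGAA (bound by STAT factors, in 8.3%) and AGAACA (a glucocorticoid receptor core motif, in 19.0%). The Hal window lies at chr10:93488518-93488817 on the plus strand, the Cbs window at chr17:31637156-31637455 on the minus strand, the Kmo window at chr1:175631943-175632242 on the plus strand and the Shmt1 window at chr11:60811216-60811515 on the minus strand.
Hal: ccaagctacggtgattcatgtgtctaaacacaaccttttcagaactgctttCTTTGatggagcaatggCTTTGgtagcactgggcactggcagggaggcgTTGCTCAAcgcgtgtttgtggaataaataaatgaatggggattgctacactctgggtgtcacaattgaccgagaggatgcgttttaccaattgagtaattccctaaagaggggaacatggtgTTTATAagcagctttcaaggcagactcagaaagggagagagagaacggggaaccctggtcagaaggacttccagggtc
Cbs: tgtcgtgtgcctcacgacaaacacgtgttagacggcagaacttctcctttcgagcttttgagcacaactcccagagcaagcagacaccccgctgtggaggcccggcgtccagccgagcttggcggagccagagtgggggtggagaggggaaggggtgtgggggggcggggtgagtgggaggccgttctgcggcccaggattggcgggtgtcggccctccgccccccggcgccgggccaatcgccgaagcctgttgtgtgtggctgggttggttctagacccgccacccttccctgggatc
Kmo: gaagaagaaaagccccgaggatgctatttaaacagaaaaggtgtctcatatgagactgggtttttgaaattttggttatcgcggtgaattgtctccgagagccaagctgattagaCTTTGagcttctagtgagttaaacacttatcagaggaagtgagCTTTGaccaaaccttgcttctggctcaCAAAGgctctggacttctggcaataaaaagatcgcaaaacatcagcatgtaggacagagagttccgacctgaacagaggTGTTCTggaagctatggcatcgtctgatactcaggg
Shmt1: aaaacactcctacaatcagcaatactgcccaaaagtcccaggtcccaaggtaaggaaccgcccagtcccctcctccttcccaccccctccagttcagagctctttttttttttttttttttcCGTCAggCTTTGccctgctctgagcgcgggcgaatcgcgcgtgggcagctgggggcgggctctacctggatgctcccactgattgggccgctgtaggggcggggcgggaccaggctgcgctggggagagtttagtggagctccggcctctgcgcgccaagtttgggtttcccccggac
The Hal window held a TATA box at position -28 relative to the start, a C/EBP motif at -150 and HNF4 core motifs at -199 and -182. In the Kmo window there were HNF4 core motifs at -135, -92 and -65 and a glucocorticoid receptor core motif at 15. Its RefSeq start lies inside the deposited gene model. The Shmt1 window held a cAMP response core at -128 and an HNF4 core motif at -121, while the Cbs window held none of the 6 motifs. Among the 39 windows of the amino acid genes, 23 held the HNF4 core motif (59.0%), 7 the cAMP response core (17.9%) and 2 the STAT motif (5.13%). There were 4 each with the TATA box, the C/EBP motif and the glucocorticoid receptor core motif (10.3% each). A match is a description of these letters and is not a bound site.

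Recovered depth was 38.27 to 95.42 M (mega) reads per library, and no pair of libraries of a group agreed within counting error. The mitochondrial share of reads was 13.69% in control 2 and 5.13% to 8.67% in the other 9 libraries. Summed hepatocyte markers were 9081194 to 13406107 normalised reads in PBC livers, 6040556 to 7199728 in PSC livers and 8719150.3 to 9848118 in control livers. The PSC range lay below the control range. Alb was the largest part of this sum, with a mean of 3397602 in PSC and 5602143 in control livers. In PSC 6 of the 7 markers had a negative log2 fold change, with Apoa1 (-0.10) and Apob (-0.08) near 0, and Fgb had a positive one (0.57). Summed neutrophil markers were 38015 to 114342 in PBC, 8904 to 16038 in PSC and 365 to 6432 in control livers. For macrophage markers the sums were 97424 to 137933 in PBC, 64412 to 81819 in PSC and 28895 to 45968 in control livers. Summed cholangiocyte markers were 10161 to 13646 in PBC, 54648 to 95253 in PSC and 7698 to 13232 in control livers. Spp1 was the largest part of that sum, with a mean of 75427 in PSC and 9081 in control livers, and all 8 markers had a positive fold change in PSC. Those of stellate cells and fibroblasts were 16211 to 29754 in PBC, 53875 to 57529 in PSC and 13935 to 22132 in control livers. In PBC against control, called markers were 1 of 7 hepatocyte, 8 of 8 neutrophil, 7 of 8 macrophage, 6 of 7 T cell, 3 of 6 B and plasma cell, 3 of 8 cholangiocyte, 3 of 8 stellate and fibroblast, 1 of 8 endothelial and 0 of 4 erythroid genes, all higher. PSC against control gave, higher, 0 of 7 hepatocyte, 6 of 8 neutrophil, 3 of 8 macrophage, 0 of 7 T cell, 1 of 6 B and plasma cell, 7 of 8 cholangiocyte, 5 of 8 stellate and fibroblast, 1 of 8 endothelial and 1 of 4 erythroid genes. Lower in PSC were 1 hepatocyte, 2 B and plasma cell and 2 endothelial genes. No marker was at 0 in every library of a group. The part of cell composition in the results below was not tested, and in bulk liver fewer hepatocytes and less RNA per hepatocyte cannot be told apart.

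Most of the amino acid genes stayed within a narrow range of the control level in both disease models. The plot of fold changes with intervals shows all 48 genes. A called gene is one with an adjusted p below 0.05 over all 18390 tested models. In PBC against control, 3 genes rose, Cps1, Hal and Cbs, and 0 fell; over all tested genes 7.6% were called higher and 2.34% lower. The limma test gave an unadjusted p below 0.05 for 9 higher and 4 lower members in PBC. That was 13 of 48 members, beside 4866 of all 18390 tested genes. With edgeR 3 members were called higher and 0 lower, beside 1225 and 345 of all genes. DESeq2 called 5 members higher and 2 lower, beside 1660 and 909 of all genes. In PSC against control, 0 rose and 2 fell, Kmo and Shmt1, against a background of 8.25% called higher and 6.48% lower. Unadjusted limma p was below 0.05 for 0 higher and 5 lower members in PSC, beside 5527 of all 18390 tested genes in either direction. With edgeR 0 members were called higher and 3 lower, beside 1436 and 1176 of all genes. DESeq2 also called 0 and 3, beside 1878 and 1929 of all genes. Both comparisons use the same 4 control livers.

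The median log2 fold change of the 48 genes was 0.07 in PBC, with 31 positive and 17 negative, against 0.01 over all tested genes. That sign depended on the scaling and on the libraries kept. The members' median was 0.0 with TMM scaling (24 positive) and -0.06 with libraries scaled to equal totals (21 positive), where the median of all genes moved to -0.12. It was 0.01 with edgeR and with DESeq2. On leaving out 1 library it ran from -0.0 (PBC 9, 24 positive) to 0.21 (control 4 or PBC 8). The median in PSC was -0.04, with 20 positive and 28 negative, against 0.06 over all genes, and it became 0.02 without control 1, 0.05 without control 4 and 0.03 without PSC 11. In PBC the interval of 95% around the fold change lay within a 2-fold difference either way for 31 of 48 genes, against 37.9% of all tested genes. In PSC it did so for 33 of 48, against 37.1% of all genes. A fold change beyond 2-fold was found for 1 member in PBC, Arg2, and for 0 in PSC, against 19.0% and 22.9% of all genes. The filter for all genes was 10 normalised reads in 3 libraries, whereas 31 of the 48 members had at least 10000 in every library. Genes of like abundance were not compared, here or below. Every PBC liver lay above every control liver for 5 members and below for 0, beside 12.7% and 6.89% of all genes. Every PSC liver lay above every control liver for 1 member and below for 5, beside 15.9% and 15.6% of all genes.

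**Figure D1:**
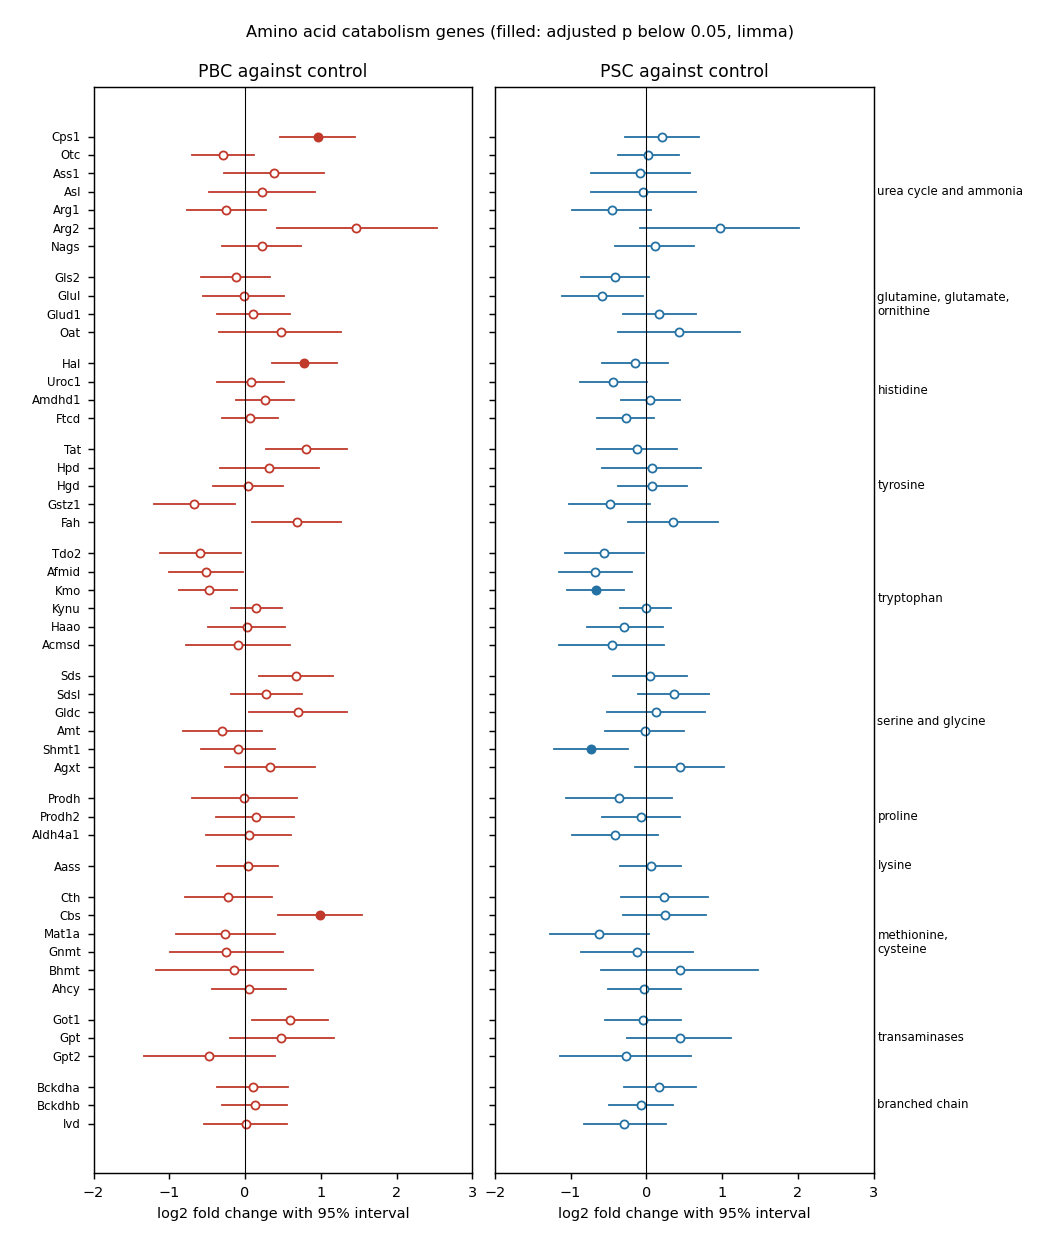
Log2 fold change (x axis) of each of the 48 genes with its 95% interval, PBC against control on the left and PSC against control on the right, grouped by pathway; filled points have an adjusted p below 0.05 (limma). Cps1, Hal and Cbs are filled in PBC and Kmo and Shmt1 in PSC, and most intervals cross 0.

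Per kilobase of exon, the most abundant of these transcripts in control livers was Gnmt, the glycine methyltransferase that consumes S-adenosylmethionine, at 149142 normalised reads per kilobase. Hpd of tyrosine breakdown followed at 75067, then the last enzyme of the urea cycle, Arg1, at 54679.5, and Glud1, glutamate dehydrogenase, at 41103. The lowest were Nags at 459, Acmsd at 177 and Arg2 at 17.3 normalised reads per kilobase. The same genes stood at the ends in the disease models: Gnmt had 118961 per kilobase in PBC and 128070.0 in PSC livers, and Arg2 had 46.6 and 35.5. In every library 31 of the 48 genes had at least 10000 normalised reads, so counting error is small beside the differences between mice for these genes. No value per kilobase is given for Afmid because of the merged model.

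In the urea cycle 1 gene was called. Of 7 genes of the cycle and its ammonia supply, 1 rose in PBC (Cps1), 0 fell, and 0 were called in PSC by limma, edgeR or DESeq2, with 0 unadjusted limma p below 0.05. Cps1 (gene model GSMG0000390, chr1:67123027-67231266, plus strand) encodes carbamoyl phosphate synthetase, which fixes ammonia in the first step. Cps1 had 106431, 70052 and 127231 normalised reads in PBC livers, 62568, 55604 and 57702 in PSC livers and 46949, 42685, 56015 and 58442 in control livers. All 3 PBC livers lay above every control and PSC liver, with PBC 8 the lowest of them, while PSC and control livers overlapped. Cps1 averaged 101238 ± 28941 in PBC, 58625 ± 3573 in PSC and 51023 ± 7441 in control livers (SD, n = 3, 3 and 4). Its log2 fold change was 0.96 (SE 0.23, adjusted p = 0.0198) in PBC, a 1.94-fold rise, and 0.21 (SE 0.23, adjusted p = 0.577) in PSC. The call in PBC was lost under 4 of 19 alternatives, with adjusted p of 0.0651 with only the compared groups fitted, and, on leaving out 1 library, 0.0571 (control 1), 0.0762 (PBC 7) and 0.109 (PBC 9). PBC against PSC gave 0.75 (SE 0.24, adjusted p = 0.134), and there the adjusted p was 0.0387 with DESeq2, 0.0115 with library quality weights and 0.043 without PBC 8.

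The other enzymes of the cycle were not called by limma in either comparison with control. Otc, ornithine transcarbamylase, had 43198, 38388 and 40729 normalised reads in PBC livers, 46583, 50582 and 54849.6 in PSC livers and 50568, 39648, 54314 and 56500.1 in control livers. The PBC values lay below all PSC values and overlapped the control range, where control 2 was low. Otc's log2 fold change was -0.29 (SE 0.19, adjusted p = 0.354) in PBC, 0.02 (SE 0.19, adjusted p = 0.953) in PSC and -0.31 (SE 0.20, adjusted p = 0.417) in PBC against PSC. Ass1, argininosuccinate synthetase, had 102895, 60038 and 94985 normalised reads in PBC livers, 50966, 66916 and 66907 in PSC livers and 65715, 36607, 76303 and 93555 in control livers, in the model merged with Gm5424. Control 2 was the lowest of all 10 livers, and all 3 groups overlapped. Ass1's log2 fold change was 0.38 (SE 0.31, adjusted p = 0.463) in PBC and -0.08 (SE 0.31, adjusted p = 0.893) in PSC. Asl, argininosuccinate lyase, had 45028, 32109 and 64195 normalised reads in PBC livers, 33864, 37788 and 41668 in PSC livers and 45253, 24920.0, 29269.6 and 67150.0 in control livers. The highest and the lowest liver were both controls, so the disease livers lay within the control range. Asl's log2 fold change was 0.23 (SE 0.32, adjusted p = 0.694) in PBC and -0.04 (SE 0.32, adjusted p = 0.955) in PSC.

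Arg1, the cytosolic arginase that releases urea, had 94773, 103466 and 101506 normalised reads in PBC livers, 68862, 100586 and 93453 in PSC livers and 116236, 84845, 158168 and 128055 in control livers. The 3 highest livers were controls, and control 2 lay among the disease livers, so the groups overlapped. Arg1's log2 fold change was -0.25 (SE 0.24, adjusted p = 0.544) in PBC and -0.46 (SE 0.24, adjusted p = 0.222) in PSC, and the interval in PSC ran from -0.98 to 0.06. Arg2, a mitochondrial arginase that is low in hepatocytes and also made by activated macrophages, had the largest fold change of the 48 genes in both comparisons, from very low levels. It had 62.2, 84.4 and 52.9 normalised reads in PBC livers, 63.8, 22.6 and 65.7 in PSC livers and 29.8, 15.4, 38.3 and 15.3 in control livers, so that every PBC liver lay above every control and PSC 13 lay within the control range. Arg2 did not pass the test in PBC, at 1.47 (SE 0.49, adjusted p = 0.0723), or in PSC, at 0.97 (SE 0.49, adjusted p = 0.201), and DESeq2 called it in PBC (adjusted p = 0.0434). Nags, which makes the activator that Cps1 requires, ranged over 1369 to 1495 in PBC, 1319 to 1385 in PSC and 779 to 1792 in control livers, with a log2 fold change of 0.22 (SE 0.24, adjusted p = 0.608) in PBC and 0.11 (SE 0.24, adjusted p = 0.803) in PSC.

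**Figure D2:**
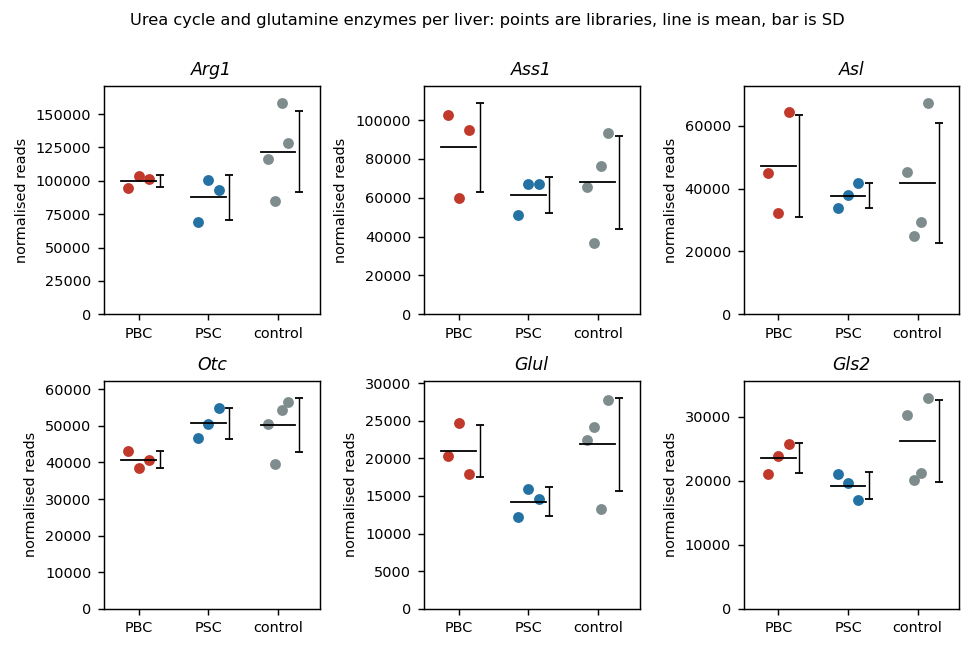
Normalised reads (y axis, from 0) of 6 urea cycle and glutamine genes in each liver by group (x axis), with the group mean as a line and the SD as a bar beside it (n = 3, 3 and 4). None of the 6 passed the test in any comparison, and the control livers span the widest range in all 6 panels.

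Glutamine metabolism divides between the portal and the central end of the lobule. Gls2, the liver glutaminase, which releases ammonia from glutamine beside the portal tract, had 21118, 23872 and 25788 normalised reads in PBC livers, 21072, 19744 and 16956 in PSC livers and 30305, 20135, 21299.5 and 33037 in control livers. Its PSC values lay below all PBC values and reached into the control range. Gls2's log2 fold change was -0.12 (SE 0.21, adjusted p = 0.755) in PBC, -0.42 (SE 0.21, adjusted p = 0.206) in PSC and 0.29 (SE 0.23, adjusted p = 0.497) in PBC against PSC, and the adjusted p in PSC was 0.00769 with library quality weights. Glul, glutamine synthetase of the hepatocytes next to the central vein, had 20302, 24686 and 17963 normalised reads in PBC livers, 12157, 15979 and 14560.4 in PSC livers and 22423, 24120.3, 13229.8 and 27781 in control livers. Control 3 was as low as the PSC livers, and the other 3 controls lay above them. Glul's log2 fold change was -0.02 (SE 0.24, adjusted p = 0.969) in PBC, -0.58 (SE 0.24, adjusted p = 0.131) in PSC and 0.56 (SE 0.26, adjusted p = 0.276) in PBC against PSC, and the adjusted p in PSC was 0.0066 with library quality weights and 0.0161 without control 3. Glud1, which releases ammonia from glutamate, ranged over 173934 to 200190.1 in PBC, 181686 to 197989 in PSC and 132065 to 213820.1 in control livers. Oat, ornithine aminotransferase of the central zone, ranged over 25686 to 43526 in PBC, 26582 to 39732 in PSC and 12821 to 47916 in control livers, where control 4 was the highest of all livers. Of these 4 genes 0 were called in either comparison with control by limma, edgeR or DESeq2, and 1, Glul in PSC, had an unadjusted limma p below 0.05.

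Read by their place in the lobule, 2 of 8 periportal genes were called higher in PBC, Cps1 and Hal, and 0 lower, beside 7.6% and 2.34% of all tested genes. The median log2 fold change of the 8 was 0.30 in PBC and -0.06 in PSC, against 0.01 and 0.06 over all genes. In PSC 0 were called, with 0 unadjusted limma p below 0.05. Of the pericentral pair Glul and Oat, 0 were called in either comparison. In PBC 5 of the 8 periportal genes had a positive fold change and 3 a negative one, namely Otc (-0.29), Arg1 (-0.25) and Gls2 (-0.12). The zone of each gene comes from background knowledge of mouse liver. The lists were chosen with earlier results of these data known, so they are not independent of these libraries.

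Histidine breakdown held a gene that set the PBC livers apart from both other groups. Hal (gene model GSMG0003412, chr10:93488768-93516761, plus strand) encodes histidine ammonia-lyase, which starts the pathway. Hal had 38687, 32059 and 43727 normalised reads in PBC livers, 21021, 19932 and 18623 in PSC livers and 29768, 20659.7, 20308 and 18819 in control livers. Every PBC liver lay above every PSC and control liver, and control 1 stood above the other 3 controls. Hal averaged 38158 ± 5852 in PBC, 19859 ± 1201 in PSC and 22389 ± 4984 in control livers (SD, n = 3, 3 and 4). Its log2 fold change was 0.78 (SE 0.20, adjusted p = 0.0282) in PBC, a 1.72-fold rise, and -0.15 (SE 0.20, adjusted p = 0.66) in PSC. PBC against PSC gave 0.93 (SE 0.22, adjusted p = 0.0407), so Hal was the single member called between the models, and this contrast shares its PBC livers with the first. The call against control was lost under 8 of 19 alternatives, with adjusted p of 0.0521 with no filter on low values, 0.0629 with libraries scaled to equal totals and 0.0819 with only the compared groups fitted, and, on leaving out 1 library, 0.0502 (control 2), 0.0509 (control 3), 0.057 (control 4), 0.0884 (PBC 7) and 0.133 (PBC 9). The call against PSC was lost under 9, with adjusted p of 0.0658 with no filter on low values, 0.0522 with TMM scaling and 0.0607 with libraries scaled to equal totals, and, on leaving out 1 library, 0.0501 (control 2), 0.102 (PBC 7), 0.111 (PBC 9), 0.095 (PSC 11), 0.155 (PSC 13) and 0.201 (PSC 14). In PSC against control, Hal had an adjusted p of 0.0429 with library quality weights.

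The later enzymes of histidine breakdown were not called. Uroc1, urocanase, the next step, ranged over 9594 to 11539.9 in PBC, 7103 to 7623 in PSC and 7181 to 13367 in control livers, with a log2 fold change of 0.08 (SE 0.21, adjusted p = 0.848) in PBC and -0.44 (SE 0.21, adjusted p = 0.172) in PSC, where the adjusted p was 0.00532 with library quality weights and 0.0359 without control 3. Amdhd1, the imidazolone propionase, gave 0.26 (SE 0.18, adjusted p = 0.38) in PBC and 0.05 (SE 0.18, adjusted p = 0.877) in PSC. Ftcd, which passes the last single-carbon unit to folate, gave 0.07 (SE 0.17, adjusted p = 0.843) in PBC and -0.27 (SE 0.17, adjusted p = 0.309) in PSC, where every PSC liver (18676 to 20973) lay below every control (22565 to 28368). All 4 histidine genes had a positive fold change in PBC against PSC, with a median of 0.43, as had 34 of all 48 members. For 3 of the 4 every PBC liver lay above every PSC liver, beside 14.6% of all tested genes.

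Tyrosine breakdown gave 0 called genes of 5 in either comparison with control by limma or edgeR, with an unadjusted limma p below 0.05 for 2 higher and 1 lower gene in PBC and for 0 in PSC. Tat, tyrosine aminotransferase, the first step and a classical glucocorticoid target in liver, had 62388, 97421 and 107895 normalised reads in PBC livers, 43032, 48689 and 46105 in PSC livers and 66770.2, 44070.1, 37761 and 55496 in control livers. All PBC livers lay above all PSC livers, while PBC 7 was below control 1. Tat's log2 fold change was 0.80 (SE 0.25, adjusted p = 0.0567) in PBC, -0.12 (SE 0.25, adjusted p = 0.786) in PSC and 0.92 (SE 0.26, adjusted p = 0.0947) in PBC against PSC. The adjusted p in PBC was 0.0478 with the stricter filter, 0.0295 with DESeq2 and 0.0343 without PBC 7, and DESeq2 gave 0.0191 in PBC against PSC. Hpd and Hgd, the dioxygenases of the next steps, gave log2 fold changes in PBC of 0.32 and 0.04, and in PSC of 0.07 and 0.08. Gstz1, maleylacetoacetate isomerase, gave -0.67 (SE 0.25, adjusted p = 0.104) in PBC and -0.48 (SE 0.25, adjusted p = 0.21) in PSC, and the adjusted p in PBC was 0.0247 with DESeq2, 0.0385 with library quality weights and 0.0336 without control 2. Fah, fumarylacetoacetase, which closes the pathway, gave 0.68 (SE 0.27, adjusted p = 0.129) in PBC and 0.35 (SE 0.27, adjusted p = 0.419) in PSC, and the adjusted p in PBC was 0.0125 with library quality weights and 0.0162 without PBC 8.

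Tryptophan breakdown along the kynurenine route had 6 of 6 negative fold changes in PSC, with a median of -0.51 against 0.06 over all genes, and 1 gene passed the test. In PBC 4 of 6 were negative, with a median of -0.29 against 0.01 over all genes, and 0 passed. The unadjusted limma p was below 0.05 for 3 lower genes in each model and for 0 in PBC against PSC. Of all 18390 tested genes, in either direction, it was below 0.05 for 4866 in PBC, 5527 in PSC and 3403 between the models. The tryptophan counts include the model in which Afmid is merged with Syngr2. Proline breakdown also had 3 of 3 negative fold changes in PSC, with 0 calls, and there Prodh2 turned to 0.05 without control 4 and to 0.03 without PSC 11. Kynu was near 0 and turned to 0.05 without control 1 and to 0.01 without PSC 13. Kmo (gene model GSMG0001102, chr1:175620380-175662116, plus strand) encodes kynurenine 3-monooxygenase, which commits kynurenine to the NAD branch. Kmo had 4347, 6266 and 4668 normalised reads in PBC livers, 4468, 4482 and 4314 in PSC livers and 7964, 6199, 6752 and 7343 in control livers. All 3 PSC livers lay below all 4 controls, and their highest to lowest ratio was 1.04, whereas PBC 8 lay within the control range. Kmo averaged 5094 ± 1028 in PBC, 4421 ± 93.3 in PSC and 7064 ± 760.3 in control livers (SD, n = 3, 3 and 4). Its log2 fold change was -0.67 (SE 0.18, adjusted p = 0.0245) in PSC, -0.48 (SE 0.18, adjusted p = 0.1) in PBC and 0.19 (SE 0.19, adjusted p = 0.615) in PBC against PSC. The PSC call was lost under 5 of 19 alternatives, with adjusted p of 0.0666 with libraries scaled to equal totals, and, on leaving out 1 library, 0.0751 (control 1), 0.0743 (PSC 11), 0.0789 (PSC 13) and 0.107 (PSC 14). In PBC the adjusted p was 0.0422 with DESeq2, 0.00598 with library quality weights and 0.0212 without PBC 8.

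Tdo2, tryptophan dioxygenase, which opens the pathway and is another glucocorticoid target, had 36844, 48237 and 35980.4 normalised reads in PBC livers, 33501, 47727 and 42835 in PSC livers and 48042, 54530.2, 54720.1 and 91253 in control livers. Every PSC liver lay below every control, PSC 13 by a narrow margin, PBC 8 was level with control 1, and control 4 stood far above the rest. Tdo2's log2 fold change was -0.59 (SE 0.24, adjusted p = 0.142) in PBC and -0.56 (SE 0.24, adjusted p = 0.145) in PSC. The model that holds Afmid, the formamidase of the next step, together with Syngr2 gave -0.52 (SE 0.23, adjusted p = 0.16) in PBC and -0.68 (SE 0.23, adjusted p = 0.0588) in PSC. Its adjusted p was 0.0107 with library quality weights in PBC, and in PSC it was 0.0455 with edgeR, 0.0181 with DESeq2 and 0.000758 with library quality weights, and, on leaving out 1 library, 0.0376 (control 2), 0.0335 (control 3) and 0.0443 (PBC 8). The fold changes of Kynu, kynureninase, were 0.15 in PBC and -0.01 in PSC, and those of Haao, which follows it, 0.02 and -0.29. Acmsd, which diverts the route away from NAD, gave -0.09 (SE 0.32, adjusted p = 0.885) in PBC and -0.46 (SE 0.32, adjusted p = 0.36) in PSC, and the adjusted p in PSC was 0.00645 with library quality weights. Kmo and Kynu are also expressed by macrophages, whose summed markers were higher in both models, and what this contributed was not tested.

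Of the 6 serine and glycine genes, 1 fell in PSC and 0 were called in PBC by limma, edgeR or DESeq2, where the unadjusted limma p was below 0.05 for Sds and Gldc. Shmt1 (gene model GSMG0006759, chr11:60788105-60811265, minus strand) encodes the cytosolic serine hydroxymethyltransferase, which moves single-carbon units to folate. Shmt1 had 6503, 6857 and 7127 normalised reads in PBC livers, 4371, 4448 and 4334 in PSC livers and 8132, 5869, 5321 and 10942 in control livers. The PSC livers were nearly identical and lay below all PBC and control livers, and control 4 was the highest of all livers. Shmt1 averaged 6829 ± 313 in PBC, 4384 ± 58.3 in PSC and 7566 ± 2558 in control livers (SD, n = 3, 3 and 4). Its log2 fold change was -0.73 (SE 0.23, adjusted p = 0.0465) in PSC, -0.09 (SE 0.23, adjusted p = 0.84) in PBC and 0.64 (SE 0.24, adjusted p = 0.185) in PBC against PSC. The PSC call was lost under 10 of 19 alternatives, with adjusted p of 0.0641 with no filter on low values, 0.0794 with libraries scaled to equal totals and 0.057 with only the compared groups fitted, and, on leaving out 1 library, 0.114 (control 1), 0.0926 (control 4), 0.0592 (PBC 7), 0.0564 (PBC 9), 0.123 (PSC 11), 0.119 (PSC 13) and 0.152 (PSC 14).

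Gldc, the decarboxylase of the glycine cleavage system, had 8719, 11572 and 12396 normalised reads in PBC livers, 7849.6, 7146 and 6839.8 in PSC livers and 9711, 10274, 4899.6 and 3979 in control livers. Controls 1 and 2 lay well above controls 3 and 4, and all PBC livers lay above all PSC livers. Gldc's log2 fold change was 0.70 (SE 0.30, adjusted p = 0.159) in PBC, 0.13 (SE 0.30, adjusted p = 0.811) in PSC and 0.57 (SE 0.32, adjusted p = 0.363) in PBC against PSC. Sds, serine dehydratase, a glucagon-responsive enzyme of the portal zone, ranged over 19482 to 34489 in PBC, 15103 to 18571 in PSC and 12753 to 20577 in control livers. Sds gave 0.67 (SE 0.23, adjusted p = 0.0759) in PBC, where the adjusted p was 0.00928 with library quality weights, and, on leaving out 1 library, 0.0477 (control 4) and 0.0218 (PBC 8), and 0.05 (SE 0.23, adjusted p = 0.902) in PSC. Sdsl, a related dehydratase, was the single member with every PSC liver (1996 to 2531) above every control (1519 to 1977), with a log2 fold change of 0.36 (SE 0.22, adjusted p = 0.29) and an adjusted p of 0.0481 with library quality weights. Amt, the aminomethyltransferase of glycine cleavage, gave -0.30 in PBC and -0.02 in PSC, and Agxt, which removes glyoxylate in peroxisomes, 0.33 and 0.44.

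In methionine and cysteine metabolism 1 of 6 genes rose in PBC and 0 fell, and 0 were called in PSC by limma, edgeR or DESeq2, with 0 unadjusted limma p below 0.05 there. Cbs (gene model GSMG0017360, chr17:31612623-31637205, minus strand) encodes cystathionine beta-synthase, which sends homocysteine towards cysteine. Cbs had 42795, 30906 and 44286 normalised reads in PBC livers, 23833, 23635 and 21758 in PSC livers and 22215, 28627, 12377 and 18412 in control livers. All 3 PBC livers lay above every PSC and control liver, though PBC 8 was only slightly above control 2. Cbs averaged 39329 ± 7332 in PBC, 23076 ± 1145 in PSC and 20408 ± 6814 in control livers (SD, n = 3, 3 and 4). Its log2 fold change was 0.99 (SE 0.26, adjusted p = 0.0283) in PBC, a 1.99-fold rise, 0.24 (SE 0.26, adjusted p = 0.568) in PSC and 0.75 (SE 0.27, adjusted p = 0.17) in PBC against PSC. The PBC call was lost under 5 of 19 alternatives, with adjusted p of 0.0611 with libraries scaled to equal totals and 0.0801 with only the compared groups fitted, and, on leaving out 1 library, 0.0509 (control 4), 0.101 (PBC 7) and 0.124 (PBC 9). In PBC against PSC, Cbs had an adjusted p of 0.0237 with library quality weights.

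Cth, cystathionine gamma-lyase, the step after Cbs, had 42509, 41208 and 40459.9 normalised reads in PBC livers, 65237, 58331 and 47165 in PSC livers and 77310.5, 32856, 38859 and 53989 in control livers. The PBC livers were close together and below all PSC livers, and the controls spanned both. Cth's log2 fold change was -0.22 (SE 0.27, adjusted p = 0.65) in PBC, 0.23 (SE 0.27, adjusted p = 0.602) in PSC and -0.45 (SE 0.28, adjusted p = 0.411) in PBC against PSC. Mat1a, the liver methionine adenosyltransferase, which makes S-adenosylmethionine, had 36924, 67366 and 49764 normalised reads in PBC livers, 34334, 43953 and 38560.4 in PSC livers and 69672, 43404, 41960.4 and 99011 in control livers. Controls 1 and 4 were high, and controls 2 and 3 lay among the PSC livers. Mat1a's log2 fold change was -0.26 (SE 0.30, adjusted p = 0.635) in PBC and -0.62 (SE 0.30, adjusted p = 0.19) in PSC, with an adjusted p of 0.0107 with library quality weights in PSC. Gnmt gave -0.25 in PBC and -0.13 in PSC, and Ahcy, which hydrolyses S-adenosylhomocysteine, 0.05 and -0.03. Bhmt, which remethylates homocysteine with betaine, was the most variable of the 48 genes among controls, at 24883 to 114877, with 20512 to 62328 in PBC and 43606 to 72797 in PSC livers, and its SE was 0.48 in both comparisons with control.

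**Figure D3:**
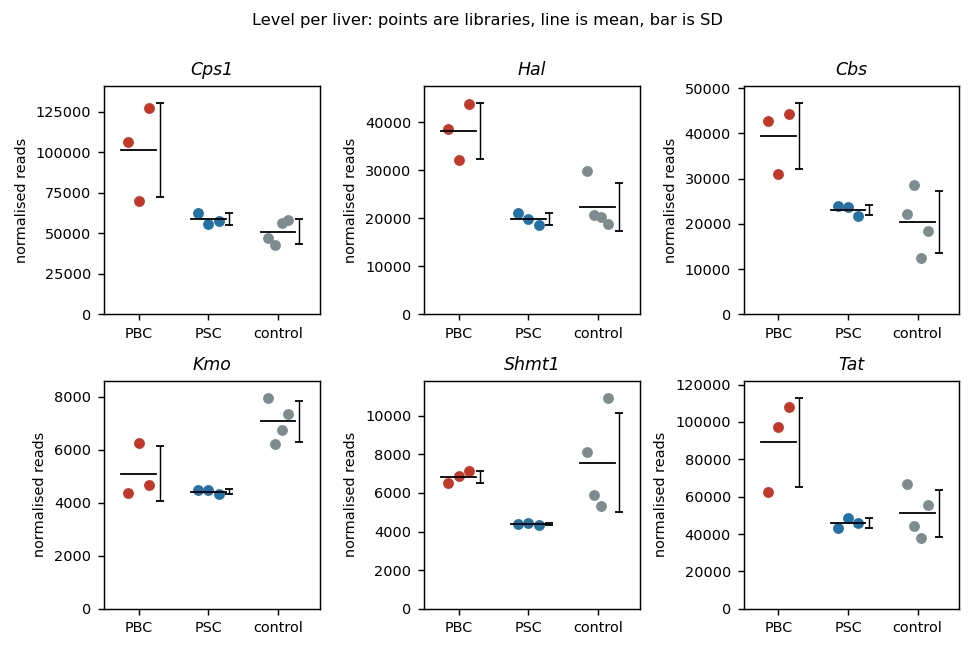
Normalised reads (y axis, from 0) of the 5 called genes and of Tat in each liver by group (x axis), with the group mean as a line and the SD as a bar beside it (n = 3, 3 and 4). PBC livers lie above all others for Cps1, Hal and Cbs, PSC livers lie below all controls for Kmo and Shmt1, and for Tat 1 PBC liver is below the highest control.

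The transaminases, proline, lysine and branched-chain genes gave 0 calls in either comparison with control by limma. Of these 10 genes 1, Got1 in PBC, had an unadjusted p below 0.05, and edgeR and DESeq2 called 0. Got1, the cytosolic aspartate aminotransferase, had 9469.6, 11083 and 14829 normalised reads in PBC livers, 7785, 6759 and 7846 in PSC livers and 8289, 5016, 8859 and 9427 in control livers. Every PBC liver lay above every other liver, PBC 7 by a small margin over control 4. Got1's log2 fold change was 0.59 (SE 0.23, adjusted p = 0.123) in PBC, -0.04 (SE 0.23, adjusted p = 0.92) in PSC and 0.64 (SE 0.25, adjusted p = 0.2) in PBC against PSC. Gpt, the cytosolic alanine aminotransferase, had 19573, 12588 and 23325 normalised reads in PBC livers, 15636, 18267 and 18284 in PSC livers and 14820.1, 7946, 10021 and 22916 in control livers. The groups overlapped, with control 2 lowest and PBC 9 highest. Gpt's log2 fold change was 0.48 (SE 0.32, adjusted p = 0.362) in PBC and 0.44 (SE 0.32, adjusted p = 0.386) in PSC. Gpt2, the mitochondrial form, ranged over 4357 to 8924 in PBC, 6729 to 7125 in PSC and 4595 to 20667 in control livers, where control 4 was the highest. These levels concern RNA in the liver and not the enzymes that leak into blood.

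Prodh, proline dehydrogenase, had 7878, 5895 and 11816 normalised reads in PBC livers, 6579.7, 6187 and 6426 in PSC livers and 9667, 4892, 6632 and 14547 in control livers. The PSC livers were alike and lay within the control range, which control 4 extended upwards. Prodh's log2 fold change was -0.01 (SE 0.32, adjusted p = 0.994) in PBC and -0.36 (SE 0.32, adjusted p = 0.488) in PSC. Prodh2, which oxidises hydroxyproline, gave 0.14 in PBC and -0.07 in PSC. Aldh4a1, the step that follows both, gave 0.05 in PBC and -0.42 in PSC, where the adjusted p was 0.0246 with library quality weights. Aass, which begins lysine breakdown, had 16878, 15316 and 16816 normalised reads in PBC livers, 14892, 17483 and 17394 in PSC livers and 17819, 12095, 15736 and 18807 in control livers. Apart from control 2, all livers lay within a narrow band. Aass's log2 fold change was 0.04 (SE 0.19, adjusted p = 0.923) in PBC, with an interval of -0.37 to 0.44, and 0.06 (SE 0.19, adjusted p = 0.866) in PSC, with an interval of -0.35 to 0.46. Bckdha, the E1 alpha subunit of the branched-chain keto acid dehydrogenase, had 23286, 16708 and 25491 normalised reads in PBC livers, 19234, 22917 and 26112 in PSC livers and 19437, 16195, 19389 and 26219 in control livers. The groups overlapped throughout. Bckdha's log2 fold change was 0.10 (SE 0.22, adjusted p = 0.804) in PBC and 0.17 (SE 0.22, adjusted p = 0.634) in PSC. The E1 beta subunit gene Bckdhb gave 0.13 in PBC and -0.07 in PSC, and Ivd, of leucine breakdown, 0.01 and -0.29, with an adjusted p of 0.0311 with library quality weights in PSC.

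The direct comparison of the models gave 1 higher member in PBC, Hal, and 0 lower, against 1.11% and 1.13% of all tested genes. Unadjusted limma p was below 0.05 for 8 higher and 0 lower members, beside 3403 of all 18390 tested genes in either direction. With edgeR 1 member was called higher and 0 lower, beside 203 and 213 of all genes. DESeq2 called 3 and 0, beside 590 and 623 of all genes. The median log2 fold change of PBC over PSC was 0.21 for the 48 genes, with 34 positive and 14 negative, against 0.02 over all genes, and it was 0.17 with TMM scaling and 0.11 with equal totals. Every PBC liver lay above every PSC liver for 14 members and below for 2, Otc and Cth, beside 14.6% and 12.6% of all genes. The 14 were Cps1, Gls2, Glul, Hal, Uroc1, Ftcd, Tat, Kynu, Sds, Gldc, Shmt1, Aldh4a1, Cbs and Got1. The summed hepatocyte markers also did not overlap between the models, with 9081194 to 13406107 in PBC and 6040556 to 7199728 in PSC livers, and what they contributed to these differences was not tested. For 29 of 48 members the interval of the difference lay within 2-fold either way, against 38.5% of all genes.

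The control livers varied more among themselves in these genes than the disease livers did. The median SD on the log2 scale within a group was 0.28 in PBC, 0.13 in PSC and 0.42 in control livers for the 48 genes, against 0.42, 0.26 and 0.41 in the same order for all tested genes. Control 4 was the highest control for 27 of 48 genes and control 2 the lowest for 25, compared with 28.8% and 30.7% of all genes. Control 2 is also the library with the highest mitochondrial share, and the part of that in its low values was not tested. Among PBC livers, PBC 8 was the lowest for 26 of 48 genes and PBC 9 the highest for 25, and among PSC livers PSC 11 was the lowest for 26, compared with 39.4%, 30.9% and 37.4% of all genes. Summed over the 48 genes, the share of all normalised reads was 1.76%, 1.97% and 1.97% in PBC livers, 1.70%, 1.92% and 1.76% in PSC livers and 2.26%, 1.49%, 1.72% and 2.44% in control livers. Both the highest and the lowest share were thus those of control livers.

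**Figure D4:**
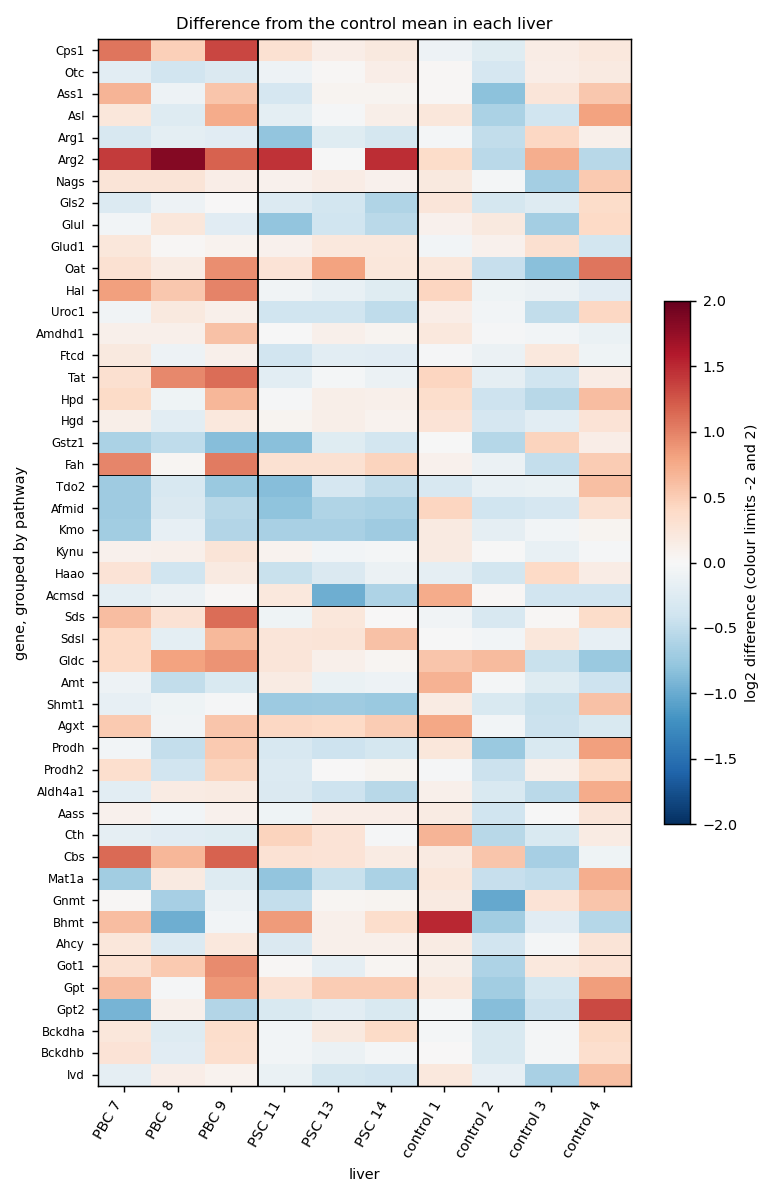
Difference of each gene (rows, by pathway) from the control mean on the log2 scale in each liver (columns), in red where higher and blue where lower, with colour limits of -2 and 2. Control 2 is mostly blue and control 4 mostly red, and Cps1, Hal and Cbs are red in all 3 PBC livers.

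Among 75 further genes of amino acid metabolism, 72 were tested; 2 rose and 3 fell in PBC, and 2 rose and 8 fell in PSC. That is 6.94% called in PBC and 13.9% in PSC. Of all tested genes 7.6% were called higher and 2.34% lower in PBC, and 8.25% higher and 6.48% lower in PSC. In both comparisons more genes of this list were called lower than higher, whereas among all genes more were called higher. The median log2 fold change was -0.11 in both comparisons, against 0.01 and 0.06 over all genes in PBC and PSC. Aldh18a1, which makes the proline and ornithine precursor from glutamate, had 418, 354 and 449 normalised reads in PBC livers, 379.9, 298 and 457 in PSC livers and 127, 108, 158 and 164 in control livers. It was higher than every control in all 6 disease livers, by a log2 fold change of 1.55 (SE 0.25, adjusted p = 0.00181) in PBC and 1.43 (SE 0.25, adjusted p = 0.00251) in PSC. Odc1, ornithine decarboxylase, which draws ornithine into polyamines, had 3556, 3916 and 4058 normalised reads in PBC livers, 3778, 4775 and 5206 in PSC livers and 7031, 5754, 9659 and 7171 in control livers. All 6 disease livers lay below all controls, with a log2 fold change of -0.92 (SE 0.20, adjusted p = 0.0116) in PBC and -0.68 (SE 0.20, adjusted p = 0.0377) in PSC. The PBC call of Odc1 was lost at an adjusted p of 0.0522 without PBC 7, and the PSC call at 0.0514 with no filter on low values, and, on leaving out 1 library, 0.0757 (control 1), 0.0578 (control 3), 0.06 (control 4), 0.156 (PSC 11), 0.0928 (PSC 13) and 0.081 (PSC 14).

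Csad, which makes the taurine precursor hypotaurine from cysteine, had 5085, 16266 and 5779 normalised reads in PBC livers, 9249, 13636 and 10041 in PSC livers and 14325, 35443, 20865 and 35454 in control livers. PBC 7 and 9 were low and PBC 8 lay within the control range, and the log2 fold change was -1.66 (SE 0.40, adjusted p = 0.0196) in PBC and -1.19 (SE 0.40, adjusted p = 0.0594) in PSC. Csad lost its PBC call at an adjusted p of 0.0579 with only the compared groups fitted, and, on leaving out 1 library, 0.0925 (PBC 7) and 0.103 (PBC 9), and its adjusted p in PSC was 0.0117 with DESeq2 and 0.0238 with only the compared groups fitted, and, on leaving out 1 library, 0.0375 (control 1) and 0.0152 (PBC 8). Acadsb, an acyl-CoA dehydrogenase of isoleucine breakdown, had 1465, 3774 and 1346 normalised reads in PBC livers, 1312, 2282 and 1862 in PSC livers and 4247, 3345, 4736 and 5179 in control livers. PBC 8 again stood apart at the control level, and the log2 fold change was -1.15 (SE 0.33, adjusted p = 0.0416) in PBC and -1.28 (SE 0.33, adjusted p = 0.0199) in PSC. Acadsb lost its PBC call at an adjusted p of 0.0507 with no filter on low values, 0.0636 with libraries scaled to equal totals, 0.09 with edgeR and 0.0841 with only the compared groups fitted, and, on leaving out 1 library, 0.082 (control 1), 0.0831 (control 3), 0.082 (control 4), 0.159 (PBC 7), 0.195 (PBC 9), 0.0523 (PSC 13) and 0.0616 (PSC 14), and its PSC call at 0.0965 (PSC 11) and 0.0715 (PSC 14), on leaving out the library in brackets. Hdc, which makes histamine from histidine in mast cells and basophils, had 62.2, 70.1 and 69.8 normalised reads in PBC livers, 29.1, 16.2 and 37.8 in PSC livers and 24.6, 21.8, 15.3 and 29.2 in control livers. It rose in PBC, with a log2 fold change of 1.56 (SE 0.42, adjusted p = 0.0328), and the call was lost at an adjusted p of 0.0846 with no filter on low values, 0.0693 with libraries scaled to equal totals and 0.0596 with only the compared groups fitted, and, on leaving out 1 library, 0.0635 (control 1), 0.0504 (control 2), 0.0661 (control 3), 0.0773 (PBC 7) and 0.106 (PBC 9).

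Ido2, another enzyme that opens the tryptophan ring, had 753, 1309.7 and 751 normalised reads in PBC livers, 581, 476 and 501 in PSC livers and 1054, 1060.3, 843 and 1366 in control livers. It fell in PSC, where every liver lay below every control, with a log2 fold change of -1.04 (SE 0.24, adjusted p = 0.0129), and gave -0.23 (SE 0.24, adjusted p = 0.574) in PBC. Without PSC 13 its adjusted p in PSC was 0.0576 and without PSC 14 it was 0.0643, and PBC against PSC gave 0.81 (SE 0.26, adjusted p = 0.127), with an adjusted p of 0.0485 with library quality weights. Srr, serine racemase, fell in PSC, with a log2 fold change of -0.86 (SE 0.21, adjusted p = 0.0182), with 1903 to 2251 in PSC and 3219 to 4144 in control livers, and the call was lost at an adjusted p of 0.0581 with libraries scaled to equal totals, and, on leaving out 1 library, 0.0637 (PSC 13) and 0.0948 (PSC 14). In PBC Srr gave -0.65 (SE 0.21, adjusted p = 0.0678), and the adjusted p there was 0.0397 with DESeq2, 0.00319 with library quality weights and 0.00582 without PBC 8. Dbt, the E2 subunit of the branched-chain keto acid dehydrogenase, fell in PSC, with a log2 fold change of -1.32 (SE 0.36, adjusted p = 0.0264), with 1088 to 1493 in PSC and 2172 to 5220.2 in control livers, whereas its partners Bckdha and Bckdhb did not pass the test. Its PSC call was lost at an adjusted p of 0.0584 with libraries scaled to equal totals, and, on leaving out 1 library, 0.0688 (control 1), 0.059 (control 4), 0.0781 (PSC 11), 0.0547 (PSC 13) and 0.118 (PSC 14). In PBC, where Dbt gave -0.95 (SE 0.36, adjusted p = 0.106), the adjusted p was 0.00367 with library quality weights and 0.0113 without PBC 8. Asns, asparagine synthetase, had 79.6, 60.5 and 131 normalised reads in PBC livers, 101, 84.1 and 309 in PSC livers and 15.5, 43.6, 53.6 and 41.6 in control livers. It rose in PSC, with a log2 fold change of 1.94 (SE 0.52, adjusted p = 0.0255), with PSC 14 well above the rest. That call was lost at an adjusted p of 0.0642 (control 1), 0.0512 (PSC 11) and 0.153 (PSC 14), on leaving out the library in brackets, and the fold change was 2.55 with library quality weights; in PBC Asns gave 1.26 (SE 0.52, adjusted p = 0.138), with an adjusted p of 0.0254 with library quality weights. The other 4 called genes of this list in PSC, Odc1 among them, were lower.

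Of 26 amino acid transporters, 23 were tested; 2 rose and 0 fell in PBC, and 0 rose and 2 fell in PSC. The called share was 8.7% in each, all higher in PBC and all lower in PSC. Of all tested genes 7.6% were called higher and 2.34% lower in PBC, and 8.25% and 6.48% in PSC. Slc3a1, the heavy chain of the cystine and dibasic amino acid transporter, moved in opposite directions in the models. It had 5695, 5513 and 7141 normalised reads in PBC livers, 1456, 831 and 871 in PSC livers and 1688, 2712, 2113 and 2006 in control livers. The PBC livers lay above and the PSC livers below all 4 controls. The log2 fold change of Slc3a1 was 1.53 (SE 0.23, adjusted p = 0.00131) in PBC, -1.04 (SE 0.23, adjusted p = 0.0107) in PSC and 2.58 (SE 0.25, adjusted p = 0.000245) in PBC against PSC. Its PSC call was lost at an adjusted p of 0.06 (PSC 13) and 0.0712 (PSC 14), on leaving out the library in brackets. Rhbg, an ammonia transporter of the hepatocytes that make glutamine, in a model merged with Tsacc, had 1062, 719 and 1054 normalised reads in PBC livers, 598, 603 and 641 in PSC livers and 425, 354, 243 and 507 in control livers. It rose in PBC, with a log2 fold change of 1.33 (SE 0.26, adjusted p = 0.00595) and gave 0.73 (SE 0.26, adjusted p = 0.0713) in PSC, where the adjusted p was 0.00969 with library quality weights, and, on leaving out 1 library, 0.0415 (control 4) and 0.0451 (PBC 8). Slc25a44, a mitochondrial carrier of branched-chain amino acids, fell in PSC, with a log2 fold change of -1.30 (SE 0.29, adjusted p = 0.0105), with 422 to 734 in PSC and 968 to 1726 in control livers, and lost that call at an adjusted p of 0.0563 (PSC 13) and 0.0539 (PSC 14), on leaving out the library in brackets. In PBC Slc25a44 gave -0.45 (SE 0.29, adjusted p = 0.348), with an adjusted p of 0.0379 with library quality weights.

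Slc1a2, a glutamate transporter that in liver belongs to the central zone, had 4926, 4216 and 7850.3 normalised reads in PBC livers, 2029.7, 2575 and 2296 in PSC livers and 3218, 3267, 2302 and 5534 in control livers. The PBC livers lay above the PSC livers and the controls spanned the gap, with a log2 fold change of 1.25 (SE 0.30, adjusted p = 0.0475) in PBC against PSC. Against control, Slc1a2 gave 0.68 (SE 0.28, adjusted p = 0.139) in PBC, where the adjusted p was 0.0258 with library quality weights and 0.0383 without control 4, and -0.57 (SE 0.28, adjusted p = 0.192) in PSC, where it was 0.0419 with library quality weights. The call between the models was lost at an adjusted p of 0.0501 with no filter on low values, 0.0505 with the stricter filter, 0.0614 with TMM scaling and 0.0778 with libraries scaled to equal totals, and, on leaving out 1 library, 0.0714 (control 1), 0.0628 (control 2), 0.0888 (PBC 7), 0.131 (PBC 9), 0.145 (PSC 11), 0.129 (PSC 13) and 0.181 (PSC 14). In PBC against PSC, 2 transporters were called higher and 0 lower, beside 1.11% and 1.13% of all tested genes. For 12 of 23 every PBC liver lay above every PSC liver, beside 14.6% of all genes.

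**Figure D5:**
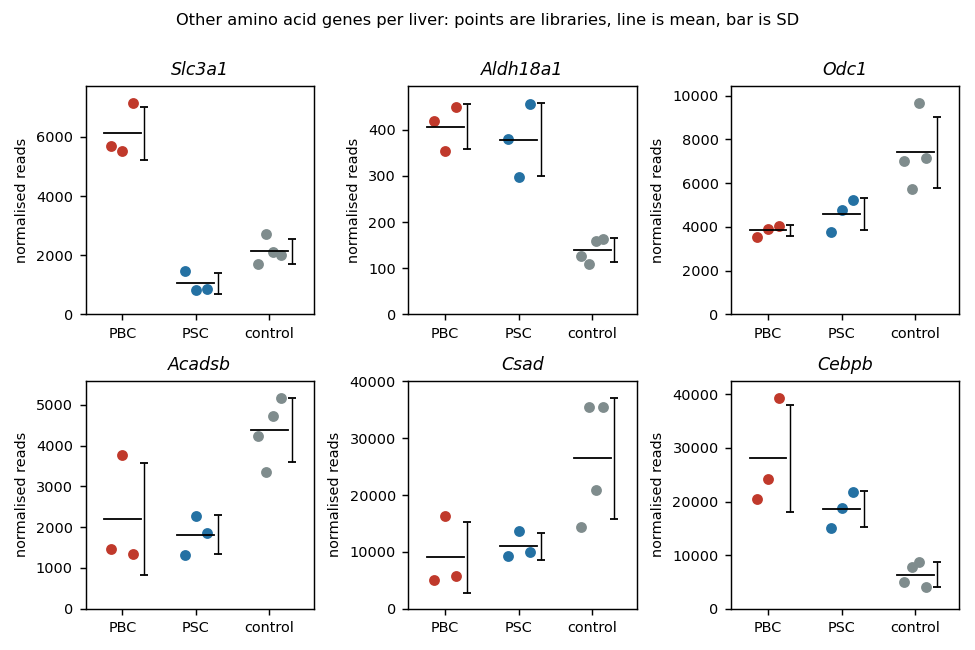
Normalised reads (y axis, from 0) of 6 further genes in each liver by group (x axis), with the group mean as a line and the SD as a bar beside it (n = 3, 3 and 4). Slc3a1 is above the controls in PBC and below them in PSC, Aldh18a1 and Cebpb are above and Odc1 below the controls in all disease livers, and for Acadsb and Csad 1 PBC liver lies in the control range.

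Of 18 regulators of hepatic amino acid breakdown, 1 rose and 0 fell in PBC, beside 7.6% and 2.34% of all tested genes. In PSC 2 rose and 3 fell, beside 8.25% and 6.48%. Cebpb, the transcription factor C/EBP beta, which is also made by myeloid cells, had 20536, 24205 and 39408 normalised reads in PBC livers, 15106, 18880.2 and 21850.4 in PSC livers and 4912, 7789, 8767 and 4059.5 in control livers. All disease livers lay above all controls, with a log2 fold change of 2.15 (SE 0.29, adjusted p = 0.000649) in PBC and 1.60 (SE 0.29, adjusted p = 0.0037) in PSC. Trib3, a pseudokinase of the amino acid stress response, rose in PSC, with a log2 fold change of 2.17 (SE 0.44, adjusted p = 0.00655), with 1349.7 to 2733 in PSC and 282 to 1047 in control livers. In PBC Trib3 gave 1.34 (SE 0.44, adjusted p = 0.0708), and the adjusted p was 0.0462 with DESeq2 and 0.00962 with library quality weights, and, on leaving out 1 library, 0.0172 (control 3) and 0.0234 (PBC 8). Nr3c1, the glucocorticoid receptor, had 361, 1089.8 and 220.1 normalised reads in PBC livers, 273, 285 and 212 in PSC livers and 1031, 778, 843 and 1009 in control livers. It fell in PSC, with a log2 fold change of -1.83 (SE 0.40, adjusted p = 0.00993), where every liver lay below every control, while among PBC livers PBC 8 was at the control level and PBC 7 and 9 were far below it. The PSC call of Nr3c1 was lost at an adjusted p of 0.0576 without PSC 14, and in PBC, with -1.04 (SE 0.40, adjusted p = 0.118), the adjusted p was 0.00345 with library quality weights and 0.00183 without PBC 8.

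Ppargc1a, a coactivator of the fasting response, fell in PSC, with a log2 fold change of -1.38 (SE 0.41, adjusted p = 0.0413), with 77.8 to 139 in PSC and 179.7 to 421 in control livers. It lost that call at an adjusted p of 0.0572 with no filter on low values and 0.0793 with libraries scaled to equal totals, and, on leaving out 1 library, 0.112 (control 1), 0.0522 (control 3), 0.0844 (control 4), 0.156 (PSC 11), 0.0666 (PSC 13) and 0.115 (PSC 14). In PBC Ppargc1a gave -0.72 (SE 0.41, adjusted p = 0.29), with an adjusted p of 0.0147 with library quality weights and 0.0322 without PBC 8. Hnf4a, a master factor of hepatocyte identity and itself one of the hepatocyte markers above, fell in PSC, with a log2 fold change of -0.91 (SE 0.29, adjusted p = 0.0488), with 3828 to 5257 in PSC and 6089.9 to 10523 in control livers. The PSC call of Hnf4a was lost at an adjusted p of 0.064 with no filter on low values, 0.0517 with TMM scaling, 0.102 with libraries scaled to equal totals and 0.0591 with edgeR, and, on leaving out 1 library, 0.0971 (control 1), 0.112 (control 2), 0.0793 (control 4), 0.0557 (PBC 9), 0.152 (PSC 11), 0.0698 (PSC 13) and 0.174 (PSC 14). In PBC Hnf4a gave -0.44 (SE 0.29, adjusted p = 0.356), with an adjusted p of 0.035 with library quality weights and 0.0317 without PBC 8.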

How the data were processed

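Whole-liver messenger RNA of 10 mice was sequenced. The authors deposited a signal per gene model, the number of reads after DESeq2 normalisation, and alignment was to mm10 by STAR 2.4.0, per the submitters' processing notes. The sources used here do not state the counting tool or its use of strand. Values were whole multiples of 1 step in each library (100% within a tolerance of 0.1), so whole reads were recovered. The main test was limma 3.58.1 (R 4.3.3) with an intensity trend on log2(value + 1), all 10 libraries in one fit, for models that reached 10 in 3 or more libraries. P-values were adjusted by Benjamini and Hochberg over all 18390 models, at a threshold of 0.05. Fold changes understate those of low genes because of the pseudocount of 1. The 19 alternatives were edgeR 4.0.16 and DESeq2 1.42.0 on recovered reads, pseudocount 10, no filter, a filter of 100, library quality weights, a fit of only the compared groups, equal totals, TMM scaling and leaving out each library. The script was tested on simulated data. P-values rest on the spread between these livers. Of the genes, all members may be named; the called ones and fixed entry steps of each pathway get values in every library, and of other lists up to 6 per comparison with the smallest adjusted p are named. The members and lists were chosen with earlier results of these data known.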

Additional observations from a re-analysis of the deposited data

Results flagged for a closer look

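For 3 of 48 genes 1 control liver lay far from the other 3, with a gap to its neighbour, divided by the range of the group, above Dixon's critical value for 4 samples. Chance gives such a gap in about 1 of 20 groups, and groups of 3 were not examined. Hal had 29768 normalised reads in control 1, with a ratio of 0.832, and this control is the one nearest to the PBC livers, in which Hal was called higher. Tdo2 had 91253 in control 4, with a ratio of 0.845. Bhmt had 114877 in control 1, with a ratio of 0.894.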

How the results depend on the processing

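None of the 6 member calls held in all 19 alternatives, and all 6 kept their sign in all of them. Of the members not called, 7 were called in at least 1 alternative in PBC against control, 10 in PSC against control and 3 in PBC against PSC. With library quality weights, calls of all genes were 4228 (main value 1828) in PBC, 7303 (2710) in PSC and 1359 (412) between the models; members called were 5 higher and 3 lower in PBC, 1 higher and 11 lower in PSC and 3 higher between the models, and further amino acid genes 15, 27 and 3. DESeq2 called 5 members higher and 2 lower in PBC, 3 higher between the models, 9 and 17 further amino acid genes in PBC and PSC, and 1213 genes between the models. With equal totals, calls were 1217 genes, 1 member and 3 further genes in PBC, 0 members lower and 6 further genes in PSC, and 0 members between the models. With only the compared groups they were 841 genes, 0 members and 2 further genes in PBC and 1 member lower in PSC. With no filter they were 3 further genes in PBC, 1 member lower in PSC and 0 members between the models, where TMM scaling also gave 0. Leaving out 1 library gave 736 (PBC 9) to 3364 (PBC 8) genes, 0 to 5 members higher, 0 to 1 lower and 1 to 13 further genes in PBC. It gave 925 (PSC 14) to 3813 (PBC 8) genes, 0 to 5 members lower and 1 to 14 further genes in PSC, and 104 (PSC 14) to 563 (control 3) genes and 0 to 2 members between the models. The share of called genes that were higher was 76.5% in PBC (70.1% with equal totals and 66.5% with TMM scaling) and 49.5% in PBC against PSC (36.1% with equal totals). In PBC this share was 57.4% with library quality weights and 89.4% with only the compared groups fitted. On leaving out 1 library it ran from 53.4% (PBC 8) to 91.4% (PBC 9) in PBC and from 39.8% (PBC 7) to 58.7% (PSC 14) between the models. The causes of these changes were not tested. No paired analysis was possible because the groups share no replicate number. In every library 31 of the 48 genes had at least 10000 normalised reads; what depth and the number of mice contribute to the count of calls was not tested.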

Other observations

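Several genes that were low in PBC 7 and PBC 9 were near the control level in PBC 8, a pattern noticed after the values were seen and not tested. Nr3c1 had 1089.8 normalised reads in PBC 8 and 361 and 220.1 in PBC 7 and 9, against 778 to 1031 in control livers. Acadsb had 3774 in PBC 8 and 1465 and 1346 in the other PBC livers, against 3345 to 5179 in control livers. Dbt had 3083 in PBC 8 and 1204 and 1232 in the others, against 2172 to 5220.2 in control livers. Csad had 16266 in PBC 8 and 5085 and 5779 in the others, against 14325 to 35454 in control livers. Among the 48 genes Kmo had 6266 in PBC 8 and 4347 and 4668 in the others, against 6199 to 7964 in control livers. Tdo2 had 48237 in PBC 8 and 36844 and 35980.4 in the others, against 48042 to 91253 in control livers. Some genes that were high in PBC 7 and 9 were also nearer the control level in PBC 8. Fah had 32867 there and 62826 and 65669.9 in the others, against 23080.0 to 45284 in control livers. Cps1 had 70052 there and 106431 and 127231 in the others, against 42685 to 58442 in control livers. Tat and Gldc did not share this split, since PBC 7 was the lowest PBC liver for both.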
